A study of Euphorbia esula with 15 samples.

Results

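Photosynthetic light reaction genes were followed in crown buds of leafy spurge (Euphorbia esula), a perennial weed whose underground buds form new shoots once the parent shoot is lost. The set was defined by 47 Arabidopsis loci for nucleus-encoded proteins of the antenna, photosystem I, photosystem II and the electron transport chain. ATP synthase subunits were counted under electron transport, so sums, medians and ratios of that role include them. An assembled leafy spurge contig was a member when its best Arabidopsis protein match was on the list. Of 569227 contigs, 185 were members, with 40 of the 47 loci as best match. They lay in 98 components, the assembly's groups of related contigs that stand for genes. Member contigs were summed within each component, and 39 components with a mean normalized count above 5 at a time point were kept. These held 99.9% of the member counts and belonged to 23240 components tested in all. A further 22 components had counts but stayed below that level, the largest with 35 counts over all libraries, and 37 had none. LHCB1.2, LHCB1.4, LHCB4.1, PSAD-1, PSAE-1, PETE1 and LFNR2 were the best match of no contig, but each of the 33 protein families was represented by another locus. The kept components comprised 14 of the antenna, 9 of photosystem I, 9 of photosystem II and 7 of electron transport. A locus name here stands for the best match in Arabidopsis, and orthology between single copies is not implied.

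The buds came from plants of biotype 1984-ND001, kept in a growth chamber at 27 C with a 16 h photoperiod, without glyphosate, after growth in a greenhouse. Buds at 0 h were paradormant, held back by the intact shoot, and those at 6 h, 24 h and 72 h were taken after the aerial stem had been cut at soil level. Poly A+ RNA was sequenced in 15 libraries, 3 of 0 h and 4 of every later time, each from buds pooled over many plants. The labels place the harvest around midnight and the study's methods around noon, at the same hour for every time point. The methods also put the shoot removal for the 6 h buds at 6 AM, which places their harvest at noon. Transcripts of light reaction genes have strong daily rhythms in Arabidopsis, so the levels hold for the hour of harvest.

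Light reactions take place in the thylakoid membranes of chloroplasts. Antenna proteins bind chlorophyll and pass excitation to the photosystems. Photosystem II takes electrons from water, and the cytochrome complex and plastocyanin carry them to photosystem I, which reduces ferredoxin. Ferredoxin-NADP reductase then makes NADPH, while the proton gradient drives ATP synthase. The innermost reaction centre proteins are encoded in the plastid genome, and the peripheral subunits and antenna proteins described here are encoded in the nucleus and imported. In a growing shoot, leaf primordia build chloroplasts from undifferentiated plastids.

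Library totals ranged from 1847115 to 8766393 expected counts, and the ranges of the time points overlapped. Counts were normalized with size factors, the median ratio of a library to the average library. Of all 23240 components, 15.3, 41.8 and 13.2% differed from 0 h after 6 h, 24 h and 72 h (edgeR, adjusted p under 0.05). The summed counts of the shoot apex markers (STM, KNAT1 and AS1, 4 components of 3 of 5 listed loci) were 1240.0 to 1377 before shoot removal, 1087 to 1201 after 6 h, 1215 to 1310.0 after 24 h and 1222 to 1322 after 72 h, with 6 h below 0 h without overlap. WUS and FIL were the best match of no contig. Of the root markers CASP1, CASP2, COBL9 and MYB36, MYB36 alone was measured, at 11.8 to 45.4 summed counts per library. Stomatal lineage markers (FAMA and TMM) summed to 36.5 to 40.5 before shoot removal, 26.1 to 55.5 after 6 h, 34.1 to 64.6 after 24 h and 56.9 to 78.0 after 72 h, so that 72 h lay above 0 h. The part of these markers in the light reaction counts was not tested. In pooled buds, a larger share of green cells and more transcript per cell cannot be told apart.

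Light reaction components were often high or low together in a library, and replicate 4 of 24 h stood apart. It had the lowest count of its time point in 34 of the 39 components, where 26.6% of all components were lowest in this library. Its median ratio to the mean of the other 24 h libraries was 0.486 over the 39 components, and the corresponding median over all components was near 0 on the log2 scale (0.01). The 5 components that were not lowest there were ATPD and the minor components of LHCA1, LHCB1.3, LHCB4.2 and PSBY. Replicate 3 of 72 h was lowest in 30 components, with a median ratio of 0.734, and replicate 1 of 6 h was highest in 23, with a median ratio of 1.25. The median coefficient of variation of components with a mean of at least 20 was 12.6% at 0 h, 18.9% at 6 h, 34.8% at 24 h (19.5% without replicate 4) and 18.4% at 72 h, against 10.5, 10.8, 11.3 and 12.1% over all components of that level. At 24 h, 97.4% of all components varied less than the median light reaction component. Replicate 4 had the smallest total of the 24 h libraries, 3750902 expected counts, and its marker sums lay within those of the other 24 h libraries for the shoot apex (1292, others 1215 to 1310), root (31.2, others 21.2 to 45.4) and stomatal lineage (58.0, others 34.1 to 64.6). The part of depth in its low values was not tested. Fold changes at 24 h and counts of components called there are given below also without this library.

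**Figure D1:**
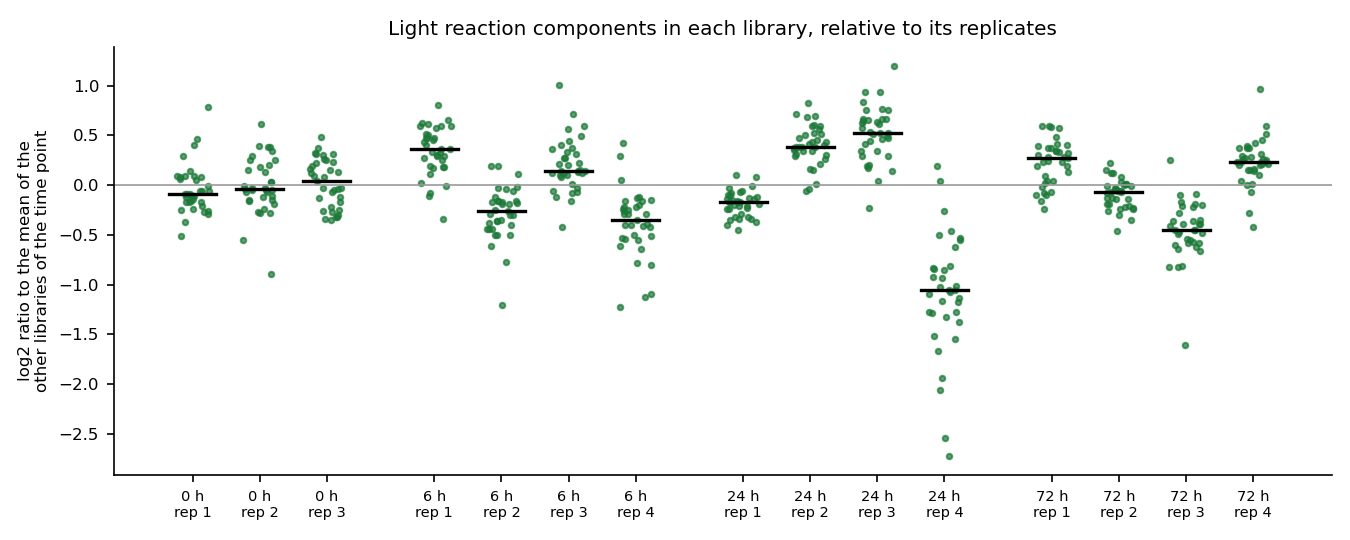
Each point is 1 of 35 light reaction components with a mean of at least 20 normalized counts at a time point, and the y axis gives its log2 ratio in that library to the mean of the other libraries of the same time point (15 libraries, grouped by hours after shoot removal; horizontal spread within a column carries no meaning). Bars are medians: the bar of 24 h replicate 4 is at -1.05 and those of the 0 h libraries are between -0.09 and 0.04.

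Summed over the 39 components, mean light reaction counts were higher at each later time point than at the one before, but the 24 h libraries overlapped those of 6 h and 72 h. The sum was 4401, 4514 and 4629 before shoot removal, 8343, 6033, 7365 and 6015 after 6 h, 8685, 11251, 12628 and 5645 after 24 h and 12720.0, 10528, 8949.9 and 12693 after 72 h. All libraries after shoot removal thus lay above those of 0 h, and the 0 h libraries differed least among themselves. Means were 1.54, 2.12 and 2.49 times that of 0 h at 6 h, 24 h and 72 h (2.40 at 24 h without replicate 4), and the set took 0.105 to 0.106% of the normalized counts of a 0 h library and 0.210 to 0.299% of a 72 h library. The antenna sum went from 2113 ± 73.0 (SD, n = 3) before shoot removal to 5571 ± 1076 (n = 4) after 72 h, 2.64 times as much. Photosystem I had the highest ratio of the roles, from 673 ± 41.3 to 1904 ± 299 (2.83 times), photosystem II went from 1109.9 ± 36.1 to 2592 ± 352 (2.34 times), and electron transport from 619 ± 39.02 to 1155 ± 172 (1.87 times). These sums are weighted by the components with most counts and carry no test. By component, the antenna came first: the median log2 fold change at 72 h was 1.72 for the antenna and 1.5 for photosystem I. It was 1.38 for photosystem II and 0.82 for electron transport.

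**Figure D2:**
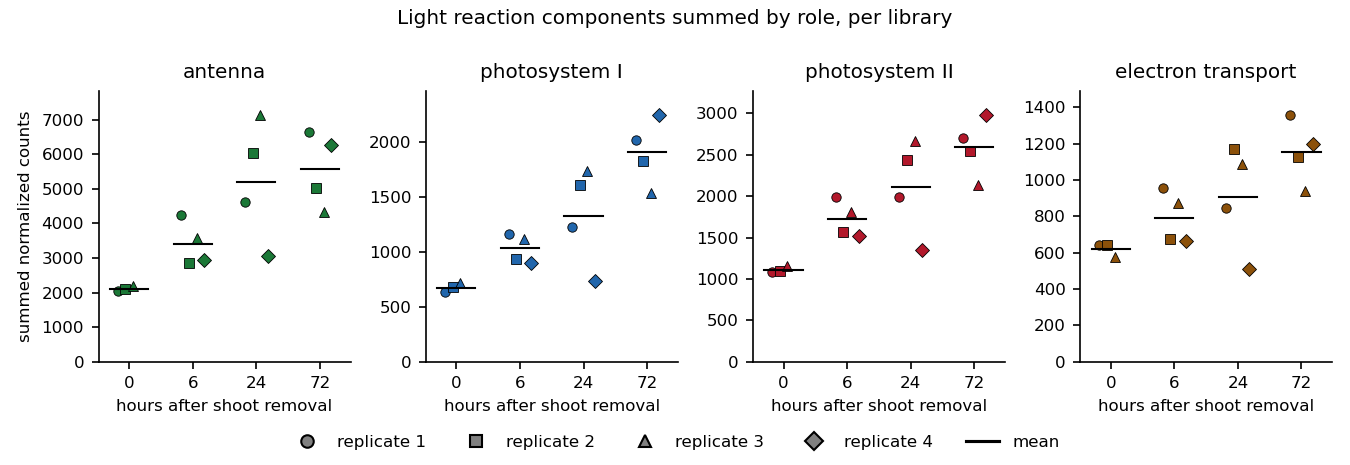
Summed normalized counts (y axis, from 0) of the 14 antenna, 9 photosystem I, 9 photosystem II and 7 electron transport components against hours after shoot removal, with 1 symbol per library and a line at the mean of the time point. In each panel the 24 h libraries spread widest, with replicate 4 at the bottom, and every 72 h library lies above every 0 h library.

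At 6 h, 11 of the 39 components had risen (28.2%, against 7.87% of all components called higher), and 0 had fallen (7.44% of all components were called lower). The count of 0 fallen components was the same in edgeR, DESeq2 and limma at an unadjusted p under 0.05. The median log2 fold change was 0.55 over the 39 components and -0.00 over all components tested, and the counts of every 6 h library exceeded those of every 0 h library in 19 components (12.3% of all components did so). By role, 4 of 14 antenna, 3 of 9 photosystem I, 4 of 9 photosystem II and 0 of 7 electron transport components had risen. LHCA4, LHCB4.2, PSAN, PSBO-2 and PSBQ-2 rose in this comparison under all 25 alternative analyses. The other calls, LHCA1, LHCB1.1, PSAE-2, PSAL, PSBP-1 and PSBW, each failed without at least 1 library. With the replicate number as a block, PSAD-2, PSAF, PSBR, PETC, PETE2 and an ATPC1 component were called higher as well. The number called was 5 without 0 h replicate 1, 6 without 0 h replicate 2, 6 without 6 h replicate 1 and 18 without 24 h replicate 4, a library outside the comparison that enters the shared estimate of spread.

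At 24 h, 28 components were higher than at 0 h and 1 was lower, where 20.2% of all components were called higher and 21.6% lower. Without replicate 4 the numbers were 32 and 1 (17.5 and 18.2% of all components), as PSAG, PSBP-1, PETC and an ATPC1 component (comp136314_c0) were then called as well. The median log2 fold change was 0.99 (1.14 without replicate 4), against 0.02 over all components. In 14 components every 24 h library lay above every 0 h library (21.2% of all components), and in 30 without replicate 4 (24.1%). By 72 h, 31 of 39 components had risen (79.5%, against 7.05% of all components) and 0 had fallen (6.11%), with DESeq2 and limma also calling 0 lower and 1 component lower at an unadjusted p under 0.05 in each tool. The median log2 fold change was then 1.38, against 0.03 over all components, and the groups were separated upwards in 33 components (11.7% of all). Every comparison with 0 h uses the same 3 libraries. Over the 4 time points together 33 of 39 components differed (53.9% of all components did).

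**Figure D3:**
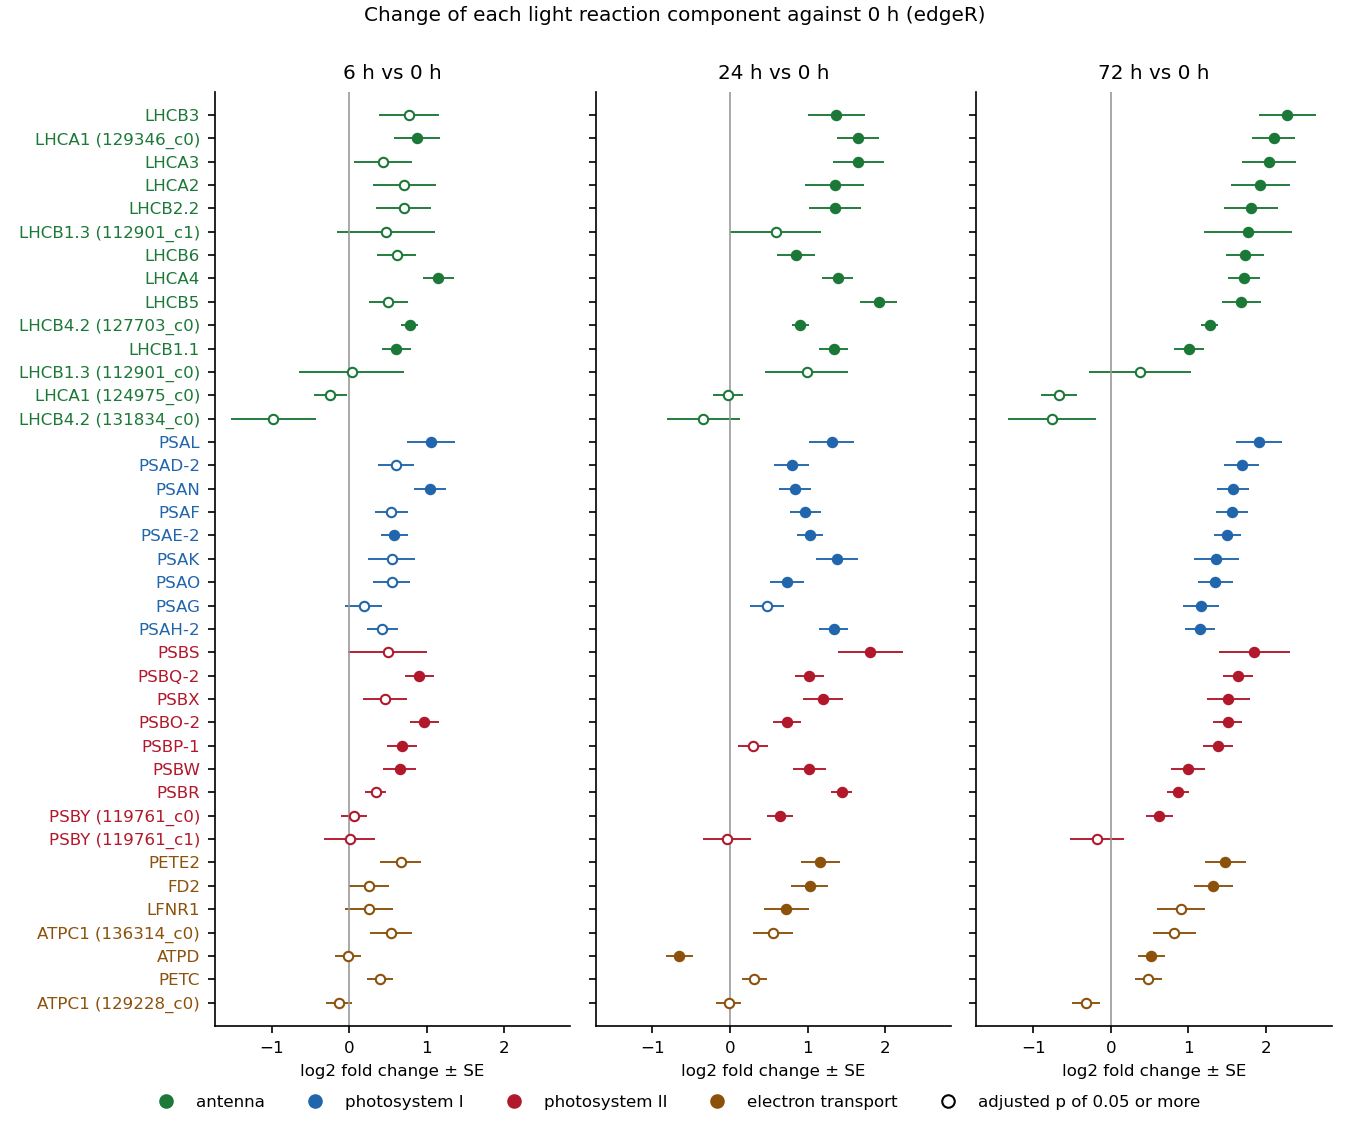
Log2 fold change against 0 h with its standard error (x axis, edgeR) for each of the 39 components (y axis, grouped and coloured by role, and ordered within a role by the value at 72 h), in 3 panels for 6 h, 24 h and 72 h. Filled points had an adjusted p under 0.05: 11 at 6 h, 29 at 24 h and 31 at 72 h, with ATPD at 24 h the single filled point left of 0.

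The antenna belt of photosystem I consists of LHCA1, LHCA2, LHCA3 and LHCA4 proteins, and their main components were among the components that rose most. LHCA4 (AT3G47470) was the earliest, with normalized counts of 105, 109 and 119 before shoot removal, 306, 226, 261 and 208 after 6 h, 243, 345, 383 and 182 after 24 h and 434, 347, 292 and 413 after 72 h. Its lowest 6 h value was well above the highest at 0 h, and only replicate 4 of 24 h came below the 6 h range. The log2 fold change was 1.15 ± 0.20 (adjusted p = 0.000278) at 6 h, 1.39 ± 0.20 (adjusted p = 4.81e-06, 1.53 without replicate 4) at 24 h and 1.72 ± 0.20 (adjusted p = 3.03e-06) at 72 h, where 60.0% of the component's counts lay on the member contig used. LHCA1 (AT3G54890) had 39.7, 44.7 and 50.4 before shoot removal, 114, 70.7, 103 and 54.9 after 6 h, 146, 163, 174 and 71.4 after 24 h and 243, 157, 147 and 259.9 after 72 h. All later libraries exceeded those of 0 h, with log2 fold changes of 0.87 ± 0.29 (adjusted p = 0.0451) at 6 h, 1.65 ± 0.27 (adjusted p = 3.03e-05, 1.83 without replicate 4) at 24 h and 2.101 ± 0.28 (adjusted p = 1.53e-05) at 72 h. The 6 h call failed without any of 0 h replicates 1, 2 and 3 or 6 h replicates 1 and 3. LHCA3 (AT1G61520), at 47, 41.4 and 53 before shoot removal, 91.3, 53.6, 91.4 and 36.2 after 6 h, 123, 191, 219.5 and 55.8 after 24 h and 226, 201, 128 and 248 after 72 h, overlapped between 0 h and 6 h and rose later, by 1.65 ± 0.33 (adjusted p = 0.0003, 1.88 without replicate 4) at 24 h and 2.04 ± 0.34 (adjusted p = 0.000237) at 72 h. LHCA2 went from 39.7, 66.3 and 47.1 at 0 h to 224, 183, 131 and 215 at 72 h, a log2 fold change of 1.93 ± 0.38 (adjusted p = 0.00131).

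LHCA1 was the member for which the study designed RT-qPCR primers, and they are shown because they are the only sequences of a light reaction gene used here. Contig sequences were not used here, and which LHCA1 component the pair amplifies was not determined.
LHCA1 forward primer: agatgggctatgctcgctgttc
LHCA1 reverse primer: ccccggggtacttcttcttttc

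A second LHCA1 component (comp124975_c0) differed from this course at low counts. Its values were 27.2, 26.5 and 33.5 before shoot removal, 24.7, 20.6, 32.6 and 26.9 after 6 h, 24.8, 28.8, 31.5 and 32.4 after 24 h and 25.5, 17, 17.5 and 16.5 after 72 h, so that replicates 2, 3 and 4 of 72 h lay below every other library. It fell by 0.64 on the log2 scale between 24 h and 72 h (edgeR adjusted p = 0.0166, -0.61 without 24 h replicate 4), a call lost without 72 h replicate 2, and its change from 0 h to 72 h was -0.67 ± 0.23 (adjusted p = 0.0582).

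The major antenna of photosystem II consists of LHCB1, LHCB2 and LHCB3 (AT5G54270), which form trimers. LHCB3 had the largest rise of the set at 72 h: its counts were 61.6, 54.7 and 57 before shoot removal, 131, 86.1, 113 and 75.6 after 6 h, 124, 177, 250.4 and 27.9 after 24 h and 321, 276, 220.1 and 319 after 72 h. The groups of 0 h and 72 h were far apart, whereas replicate 4 of 24 h fell below all 0 h libraries. LHCB3 changed by 1.37 ± 0.36 (adjusted p = 0.00399, 1.65 without replicate 4) at 24 h and 2.27 ± 0.37 (adjusted p = 0.00017) at 72 h on the log2 scale, the latter being 4.83-fold. LHCB1.1 (AT1G29920) had the most counts of the set, 936, 961 and 1029.8 before shoot removal, 1893, 1206, 1475 and 1402 after 6 h, 2174, 2733, 3386 and 1534 after 24 h and 2387, 1682, 1625 and 2205 after 72 h, with its highest mean at 24 h. It was higher than at 0 h at each time point, by 0.61 ± 0.19 (adjusted p = 0.029), 1.34 ± 0.19 (adjusted p = 5.27e-06, 1.501 without replicate 4) and 1.01 ± 0.19 (adjusted p = 0.000772), the first of which failed without 0 h replicates 1 or 2 or 6 h replicate 1. LHCB2.2 rose by 1.35 ± 0.34 (adjusted p = 0.00256, 1.63 without replicate 4) at 24 h and 1.81 ± 0.35 (adjusted p = 0.000956) at 72 h, from 177, 197 and 232 at 0 h to 913, 690.1, 458 and 806 at 72 h. Its component joins a contig matching LHCB2.2 (means of 139.5, 265, 316 and 566 in order of time) with a contig matching LHCB1.5 (62.7, 71.7, 194 and 150.6). The former was highest at 72 h while the latter was highest at 24 h, as LHCB1.1 was. Reads of such near-identical copies are shared among contigs by the counting program, so the division between LHCB1 and LHCB2 is uncertain.

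LHCB4, LHCB5 and LHCB6 are the monomeric antenna proteins that link the trimers to the core of photosystem II. LHCB4.2 was the most uniform of them, with 374, 351 and 354 before shoot removal, 682, 570.5, 664 and 572 after 6 h, 629, 678, 797 and 586 after 24 h and 943, 776, 793 and 1006 after 72 h. No library after shoot removal reached down to those of 0 h. Its log2 fold changes had the smallest errors of the antenna, 0.78 ± 0.11 (adjusted p = 2.00e-05) at 6 h, 0.90 ± 0.11 (adjusted p = 5.72e-07, 0.96 without replicate 4) at 24 h and 1.28 ± 0.11 (adjusted p = 4.13e-08) at 72 h. LHCB5 (AT4G10340) was barely separated at 6 h and then rose most of all members at 24 h: counts were 160.4, 156 and 145 before shoot removal, 296, 189, 235 and 164 after 6 h, 529, 717, 738 and 309 after 24 h and 667, 451, 351 and 524 after 72 h. The 24 h libraries, replicate 4 included, lay above all 6 h libraries. The log2 fold change was 1.92 ± 0.24 (adjusted p = 8.69e-07, 2.11 without replicate 4) against 0 h and 1.41 ± 0.21 (adjusted p = 1.38e-05, 1.603 without replicate 4) against 6 h. LHCB6 had 68, 71.3 and 57.8 before shoot removal and 133, 97.5, 78.3 and 84.1 after 6 h, without overlap, but was not called at 6 h. LHCB6 changed by 0.85 ± 0.24 (adjusted p = 0.00653, 1.03 without replicate 4) at 24 h and 1.73 ± 0.24 (adjusted p = 3.25e-05) at 72 h. It rose by 0.88 ± 0.20 (adjusted p = 0.00096, 0.70 without 24 h replicate 4) between 24 h and 72 h.

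All 9 photosystem I components had risen by 72 h, 8 at 24 h (9 without replicate 4) and 3 at 6 h. PSAL (AT4G12800), which with PSAH and PSAO forms the side where mobile antenna docks, was called at every time point: its counts were 51, 51.4 and 63.5 before shoot removal, 134, 108, 126 and 104 after 6 h, 123, 178, 194 and 43.1 after 24 h and 265, 195, 159 and 243 after 72 h. Replicate 4 of 24 h lay below the 0 h libraries, and the other 24 h libraries lay above them. The log2 fold changes were 1.06 ± 0.31 (adjusted p = 0.0205), 1.31 ± 0.29 (adjusted p = 0.000889, 1.55 without replicate 4) and 1.91 ± 0.30 (adjusted p = 0.000121) at 6 h, 24 h and 72 h, the first lost without 0 h replicates 1 or 2 or 6 h replicate 1. PSAN (AT5G64040), a lumenal subunit that takes part in docking plastocyanin, had 45.5, 34.9 and 39.3 before shoot removal, 80.7, 77.1, 81.2 and 97.7 after 6 h, 61.3, 98.3, 77.2 and 41.3 after 24 h and 106, 129.6, 115 and 130.1 after 72 h. It rose by 1.04 ± 0.21 (adjusted p = 0.00122) to 6 h, changed by -0.21 ± 0.17 (adjusted p = 0.367, -0.07 without replicate 4) between 6 h and 24 h and rose by 0.75 ± 0.17 (adjusted p = 0.00101, 0.61 without 24 h replicate 4) between 24 h and 72 h.

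PSAD-2 and PSAE-2 stand for the stromal subunits that dock ferredoxin, and PSAF for the main plastocyanin dock. PSAD-2 was 81, 74.6 and 101 before shoot removal, 139, 145, 142 and 99.99 after 6 h, 137, 178, 204 and 71.5 after 24 h and 318, 278, 218 and 319 after 72 h. It rose between 24 h and 72 h (0.89 ± 0.19, adjusted p = 0.00055, 0.70 without 24 h replicate 4). Its rise to 6 h was not called in the main edgeR fit, and was 0.70 (adjusted p = 0.0238) with the replicate number as a block. Every 72 h library of PSAD-2 lay above every earlier library of the series. PSAE-2 rose in each interval, by 0.58 ± 0.18 (adjusted p = 0.0252) to 6 h, 0.45 ± 0.14 (adjusted p = 0.0194, 0.56 without replicate 4) from 6 h to 24 h and 0.47 ± 0.14 (adjusted p = 0.0093, 0.36 without 24 h replicate 4) from 24 h to 72 h. The first step was lost without 0 h replicates 1 or 3 or 6 h replicates 1 or 3, and the second without 24 h replicates 2 or 3 or 6 h replicates 2 or 4. PSAF reached 423, 396, 392 and 553 at 72 h from 134, 159 and 151 at 0 h (1.56 ± 0.21, adjusted p = 1.39e-05). PSAG, which helps to bind the antenna belt, was called at 72 h alone in the main edgeR fit. It was also called at 24 h without replicate 4 (adjusted p = 0.00201) and with the replicate number as a block (0.54, adjusted p = 0.042). PSAG changed by 0.48 ± 0.23 (adjusted p = 0.0938, 0.67 without replicate 4) at 24 h and 1.16 ± 0.23 (adjusted p = 0.00129) at 72 h. PSAK, which lies beside the antenna belt, and PSAO and PSAH-2 rose by 1.36 ± 0.29, 1.34 ± 0.23 and 1.15 ± 0.19 at 72 h.

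**Figure D4:**
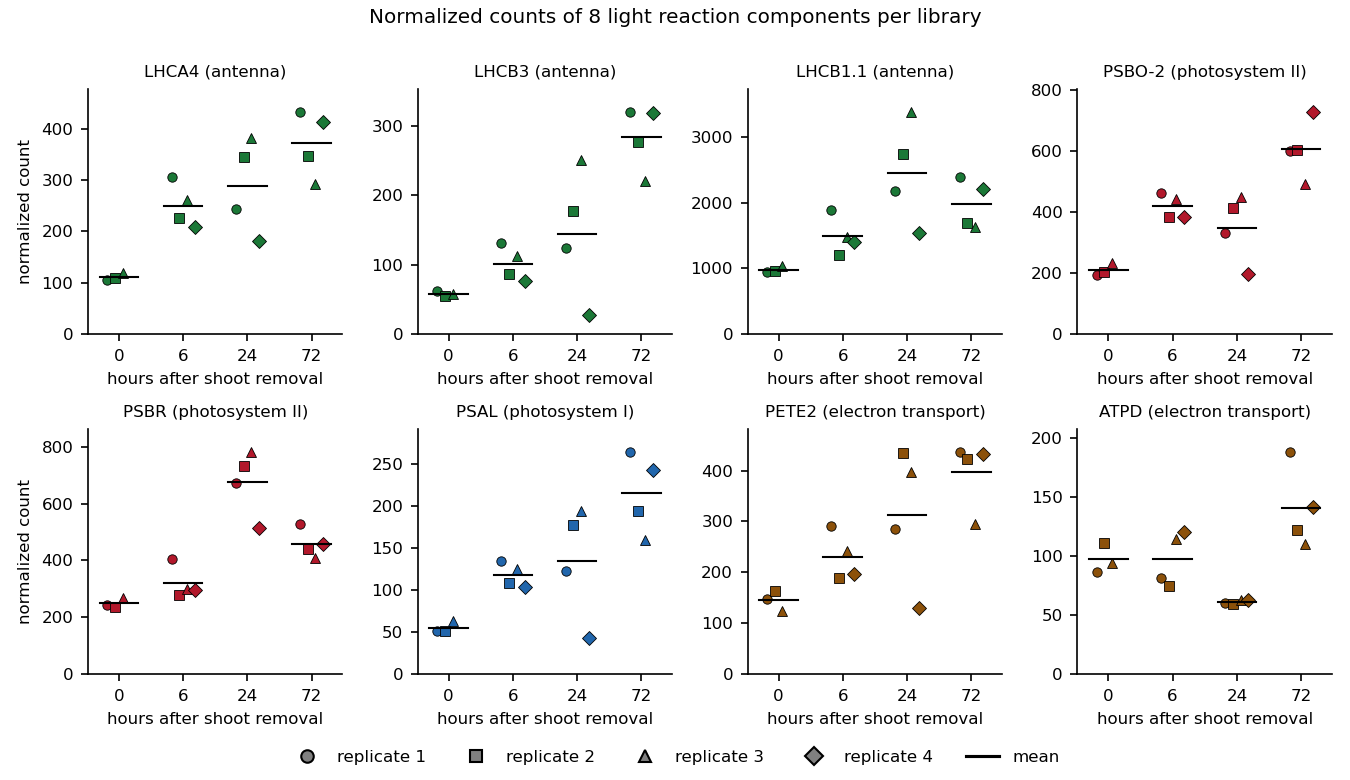
Normalized counts (y axis, from 0, with a scale of its own in each panel) of 8 components against hours after shoot removal, with 1 symbol per library and a line at the mean. In every panel but that of ATPD, all 6 h libraries lie above all 0 h libraries. PSBR and LHCB1.1 have their highest mean at 24 h, and ATPD has its lowest mean there.

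Photosystem II components included the proteins that shield the oxygen-evolving cluster in the lumen, PSBO, PSBP and PSBQ. All of them rose at 6 h, and again between 24 h and 72 h, and none was called between 6 h and 24 h, except PSBP-1 with the replicate number as a block (-0.41, adjusted p = 0.0426). PSBO-2 (AT3G50820), which stabilises the manganese cluster, had 194, 204 and 234 before shoot removal, 460.2, 384, 441 and 384 after 6 h, 329.5, 411, 449.8 and 195 after 24 h and 599, 603, 491 and 728 after 72 h. The 6 h libraries were all far above 0 h, and replicate 4 of 24 h was back within the 0 h range. Log2 fold changes of PSBO-2 were 0.97 ± 0.18 (adjusted p = 0.000566), 0.73 ± 0.18 (adjusted p = 0.00205, 0.90 without replicate 4) and 1.51 ± 0.18 (adjusted p = 5.07e-06) against 0 h. PSBP-1 (AT1G06680) had 186, 181 and 215 before shoot removal, 321, 288, 364 and 296 after 6 h, 207, 279, 326 and 128 after 24 h and 487, 521, 424 and 619 after 72 h. It was the component called at 6 h (0.68 ± 0.19, adjusted p = 0.0162) and 72 h (1.38 ± 0.19, adjusted p = 2.61e-05) but not at 24 h (0.29 ± 0.19, adjusted p = 0.219, 0.47 without replicate 4), and it rose by 1.09 ± 0.17 (adjusted p = 1.17e-05, 0.92 without 24 h replicate 4) between 24 h and 72 h. Without 24 h replicate 4 it was called at 24 h too (adjusted p = 0.011), and its 6 h call was lost without 0 h replicates 1 or 2. PSBQ-2 rose by 0.90 ± 0.19 (adjusted p = 0.00171), 1.02 ± 0.18 (adjusted p = 9.29e-05, 1.17 without replicate 4) and 1.64 ± 0.19 (adjusted p = 2.19e-06) at 6 h, 24 h and 72 h.

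PSBR (AT1G79040), a small subunit needed in Arabidopsis for stable assembly of that lumenal side, had its highest mean at 24 h. Its counts were 242, 237 and 268 before shoot removal, 405, 278, 300.2 and 296 after 6 h, 671, 733, 783 and 514 after 24 h and 528, 439, 409.6 and 458 after 72 h. The 24 h libraries overlapped those of 72 h only through replicate 4, and all of them lay above 0 h and 6 h. PSBR rose by 1.097 ± 0.12 (adjusted p = 1.87e-07, 1.2 without replicate 4) between 6 h and 24 h and fell by 0.57 on the log2 scale between 24 h and 72 h (edgeR adjusted p = 0.000352, -0.68 without 24 h replicate 4), a decrease called in all 25 alternatives. PSBS, the sensor of lumen acidity in energy-dependent quenching, had few counts, 9.72, 13.3 and 10.5 before shoot removal, 23.4, 8.77, 27.7 and 9.35 after 6 h, 28.4, 53.7, 45.7 and 17 after 24 h and 41.2, 40.5, 15.9 and 63.8 after 72 h. It was called at 24 h (1.81 ± 0.42, adjusted p = 0.00138, 1.99 without replicate 4) and 72 h (1.85 ± 0.45, adjusted p = 0.00732) with wide errors. PSBW, PSBX and PSBY are small membrane subunits. They rose by 1.02 ± 0.21 (1.21 without replicate 4), 1.197 ± 0.26 (1.38 without replicate 4) and 0.64 ± 0.16 (0.74 without replicate 4) at 24 h and by 0.99 ± 0.22, 1.52 ± 0.27 and 0.62 ± 0.17 at 72 h. The 6 h call of PSBW was lost without any of the 0 h libraries, 6 h replicates 1, 2 or 3 or 72 h replicate 4. The 72 h call of PSBY was lost without 0 h replicate 3 or 72 h replicates 1 or 4.

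Electron transport components, which here include the ATP synthase subunits ATPC1 and ATPD, had the smallest median change against 0 h of the roles. At 6 h, 0 of 7 were called by the main edgeR fit, DESeq2 or limma, with 2, 1 and 2 of 7 higher at an unadjusted p under 0.05. With the replicate number as a block, edgeR called an ATPC1 component (0.72, adjusted p = 0.0119), PETE2 (0.76, adjusted p = 0.0273) and PETC at 6 h. Plastocyanin, PETE2 (AT1G20340), had 148, 162 and 125 before shoot removal, 290.2, 189, 242 and 197 after 6 h, 285, 435, 398 and 131 after 24 h and 438, 423, 295 and 432 after 72 h. It was called at 24 h (1.16 ± 0.25, adjusted p = 0.000656, 1.39 without replicate 4) and 72 h (1.48 ± 0.26, adjusted p = 0.000388), and replicate 4 of 24 h was again the low value. FD2 (AT1G60950), the main leaf ferredoxin of Arabidopsis, went from 76.1, 82.9 and 62.8 at 0 h to 218, 164, 148 and 210.2 at 72 h, with changes of 1.03 ± 0.24 (adjusted p = 0.00131, 1.202 without replicate 4) at 24 h and 1.32 ± 0.25 (adjusted p = 0.000773) at 72 h. For LFNR1, a ferredoxin-NADP reductase, the change was 0.73 ± 0.29 (adjusted p = 0.0464, 0.93 without replicate 4) at 24 h and 0.90 ± 0.31 (adjusted p = 0.0536) at 72 h. With the replicate block LFNR1 was called at 72 h (1.05, adjusted p = 0.0105). The 24 h call was lost in 10 of 25 alternatives, 6 of which left out 1 library, 0 h replicate 2 or 3, 24 h replicate 2 or 3, or 72 h replicate 2 or 4. PETC, the Rieske subunit of the cytochrome complex, was not called against 0 h in the main edgeR fit, with a change of 0.48 ± 0.17 (adjusted p = 0.0602) at 72 h. Alternatives that called it included 24 h without replicate 4 (adjusted p = 0.0334). The replicate block called it at 6 h (0.46, adjusted p = 0.049) and 72 h (0.54, adjusted p = 0.029). PETC counts were 89.9, 109 and 77.9 at 0 h and 147, 118, 121 and 123 at 72 h.

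The component that fell after shoot removal was ATPD (AT4G09650), the delta subunit of ATP synthase, which had 86.7, 111 and 94.2 before shoot removal, 81.4, 74.3, 114 and 120.3 after 6 h, 60.0, 59.2, 62.4 and 62.5 after 24 h and 188, 122, 110.0 and 142 after 72 h. Its 24 h libraries were the tightest group of the set, with a coefficient of variation of 2.77%, and lay below every other library. ATPD fell by 0.65 on the log2 scale at 24 h (edgeR adjusted p = 0.00384, -0.66 without replicate 4), a call held in all 25 alternatives. It rose by 1.17 ± 0.16 (adjusted p = 2.74e-06, 1.18 without 24 h replicate 4) between 24 h and 72 h. Its change from 0 h to 72 h was 0.52 ± 0.17 (adjusted p = 0.0485). That call was lost in 14 of 25 alternatives, among them the absence of 0 h replicates 1 or 3, 6 h replicate 1, 24 h replicates 1, 2 or 4, or 72 h replicates 1, 2 or 4. ATPC1, the gamma subunit, was the best match of 2 kept components. Comp136314_c0 changed by 0.56 ± 0.26 (adjusted p = 0.0924, 0.71 without replicate 4) at 24 h, called without that library (adjusted p = 0.0193), and by 0.82 ± 0.28 (adjusted p = 0.052) at 72 h, with 81.5% of its counts on member contigs, some of which have a pentatricopeptide repeat protein as their top hit in the general database. With the replicate number as a block this component was called at 24 h (0.71, adjusted p = 0.00341) and 72 h (0.98, adjusted p = 0.00129). Comp129228_c0, named after its values were seen, changed by -0.32 ± 0.18 (adjusted p = 0.274).

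The remaining kept components had few counts. A component of LHCB1.3 (comp112901_c1) had 3.24, 1.66 and 3.27 before shoot removal, 2.47, 5.67, 1.63 and 4.67 after 6 h, 5.03, 3.16, 7.72 and 1.12 after 24 h and 21.6, 7.99, 9.57 and 4.72 after 72 h. It was called at 72 h (1.77 ± 0.57, adjusted p = 0.0401). This call was lost without any of the 0 h libraries, 6 h replicate 4 or 72 h replicates 1, 2 or 3. The other LHCB1.3 component, the minor LHCB4.2 component and the minor PSBY component were not called at any time point against 0 h (edgeR), and their largest mean was 16.2 normalized counts. LHCB1.3 and these minor components were named after their values were seen.

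The course between later time points differed among members. From 6 h to 24 h 12 components rose and 1 fell, where 15.4% of all components were called higher and 18% lower. Without 24 h replicate 4 the numbers were 22 and 1 (13.2 and 15.2% of all components). Without 6 h replicate 2, 7 rose and 1 fell. From 24 h to 72 h 15 rose and 2 fell (21.9 and 20.5% of all components). Without 24 h replicate 4, 13 rose and 4 fell (18.3 and 17.2% of all components), LHCB1.1 and LHCB5 being the components added to those that fell. In this last interval 7 of 9 photosystem I components rose (6 without the library), compared with 4 of 14 antenna components (3 without it), 3 of 9 of photosystem II and 1 of 7 of electron transport. From 6 h to 72 h 28 rose and 0 fell (10.1 and 8.52% of all), and 28 became 17 without 6 h replicate 2. At an unadjusted p under 0.05, edgeR and DESeq2 had 0 lower and limma 1, and 0 were lower in each tool after adjustment. Mean counts were highest at 72 h in 30 of 39 components (25.3% of all components), at 24 h in 6 (35.7%) and at 0 h in 3 (22.2%). Without 24 h replicate 4 these numbers were 26, 10 and 3 (25.1, 36 and 22.3% of all).

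Within a library, the makeup of the light reaction counts does not depend on the size factor or on a shift common to all members. The 24 h libraries, replicate 4 included, lay above all others in 4 of the 39 components and below all others in 5, and 30 overlapped. In other components replicate 4 lay apart from the rest of 24 h: LHCB3 made up 0.494% of its summed counts, against 1.42 to 1.98%, and LHCB4.2 10.4%, against 6.02 to 7.25%. PSBR made up 6.20 to 9.11% of the summed counts of the 39 components at 24 h and 3.61 to 5.78% in the other libraries. LHCB5 stood at 5.47 to 6.37% against 2.72 to 5.25%, LHCB1.1 at 24.3 to 27.2% against 16 to 23.3% and PSAH-2 at 2.93 to 3.35% against 2.14 to 2.80%, each without overlap. On the low side, PSBP-1 took 2.27 to 2.58% at 24 h and 3.83 to 4.95% elsewhere, and PSBO-2 3.46 to 3.79% and 4.42 to 6.39%. PSAD-2, PSAG and PSAO were also lower at 24 h without overlap, PSAD-2 at 1.27 to 1.62% against 1.65 to 2.64%. These components were picked for their position after the values were seen, and the shares carry no test. Such positions of the 24 h libraries were not counted over all components.

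**Figure D5:**
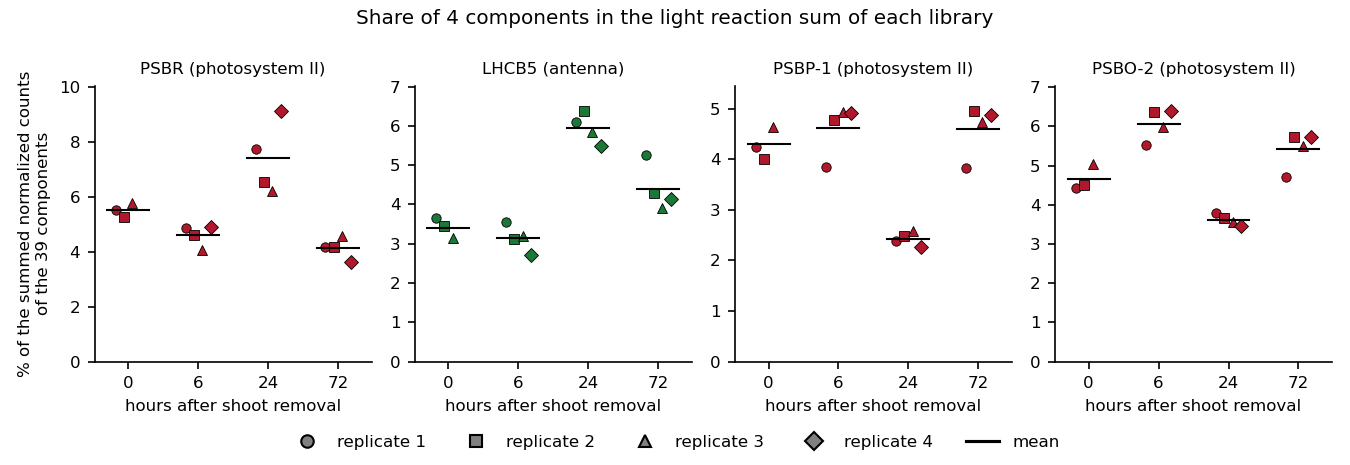
Share of PSBR, LHCB5, PSBP-1 and PSBO-2 in the summed normalized counts of the 39 components (y axis, percent, from 0) against hours after shoot removal, with 1 symbol per library and a line at the mean. All 24 h libraries lie above the others for PSBR and LHCB5 and below them for PSBP-1 and PSBO-2, replicate 4 among them.

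Some ratios between the role sums differed between time points without overlap. The antenna sum divided by the photosystem I sum was 3.08 to 3.25 before shoot removal, 3.05 to 3.64 after 6 h, 3.77 to 4.14 after 24 h and 2.76 to 3.29 after 72 h, so that the 24 h libraries were above all others. With LHCB1.1 left out, the ranges were 1.63 to 1.77, 1.72 to 2.01, 1.996 to 2.16 and 1.77 to 2.11, and they overlapped. Photosystem II divided by photosystem I stood at 1.61 to 1.71, 1.62 to 1.71 and 1.52 to 1.84 up to 24 h and at 1.33 to 1.399 at 72 h, below every earlier library. Electron transport divided by photosystem I was 0.805 to 1.02 in the 0 h libraries, 0.720 to 0.821 after 6 h, 0.629 to 0.730 after 24 h and 0.534 to 0.672 after 72 h, with overlap between neighbouring time points. Antenna divided by photosystem II was 1.899 to 1.907, 1.81 to 2.13, 2.25 to 2.67 and 1.97 to 2.46 in order of time, and 24 h overlapped 72 h. Counts depend on transcript length, so these are ratios of counts and not of molecules, and they are given without a test.

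Other genes of the pathway were taken from lists that held none of the 47 loci. From 16 loci of further subunits, 9 had 11 kept components, of which 0, 3 and 2 were higher at 6 h, 24 h and 72 h and 0 were lower at any time point against 0 h (7.87, 20.2 and 7.05% of all components were higher, and 7.44, 21.6 and 6.11% lower). Without 24 h replicate 4, 4 were higher at 24 h. At 6 h, 4, 2 and 2 of them were higher at an unadjusted p under 0.05 in edgeR, DESeq2 and limma, and 0 were lower at that level in any of these tools and time points. PETM, a small cytochrome complex subunit, rose by 1.46 ± 0.35 (adjusted p = 0.00582) at 72 h and NDHO, a subunit of the plastid NDH complex, by 1.02 ± 0.29 (adjusted p = 0.0187). LHCB7, an antenna relative, rose by 0.79 ± 0.18 (adjusted p = 0.000917, 0.76 without replicate 4) at 24 h. ATPG, ATP synthase subunit b-prime of the plastid, rose by 0.65 ± 0.16 (adjusted p = 0.00224, 0.66 without replicate 4) at 24 h. The 24 h call of NDHM, another NDH subunit, was lost without 0 h replicates 2 or 3 or 24 h replicate 2. The NDHO call was lost without 0 h replicate 1 or 72 h replicates 2 or 4. LHCA5, LHCA6 and LHCB4.3, which are rarer or stress-linked antenna forms in Arabidopsis, were not called at any time point against 0 h.

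Genes for assembly and regulation of the photosystems numbered 15, of which 12 had 14 kept components. Of these, 1, 5 and 3 were higher and 1, 1 and 0 lower at 6 h, 24 h and 72 h, beside the same shares of all components. Without 24 h replicate 4, 5 were higher and 0 lower at 24 h. Of the 24 h calls, that of a cpSRP43 component (comp132949_c0), in the targeting of antenna proteins, was lost without 0 h replicate 1 or 24 h replicates 3 or 4. This component had at most 8.37 normalized counts in a library. The cpSRP43 component with more counts (comp114296_c0) changed by 0.36 at 24 h without replicate 4 (edgeR adjusted p = 0.181). The lower component was cpSRP54, the partner of cpSRP43, lost without 0 h replicates 1 or 3 or 24 h replicates 1, 2 or 4. The call of the kinase STN8 was lost without 0 h replicate 1 or 24 h replicate 3. LPA1, an assembly factor of photosystem II, rose at 6 h (0.57 ± 0.15, adjusted p = 0.0118) and 24 h (0.67 ± 0.14, adjusted p = 0.00066, 0.61 without replicate 4), and ALB3, the insertase for antenna proteins, at 24 h (0.66 ± 0.15, adjusted p = 0.000871, 0.73 without replicate 4) and 72 h (0.56 ± 0.16, adjusted p = 0.0198). CURT1A, which bends thylakoid membranes, and PGRL1A, of cyclic electron flow, rose at 72 h by 0.87 ± 0.20 (adjusted p = 0.00447) and 1.62 ± 0.40 (adjusted p = 0.00727). A component of PGR5, the partner of PGRL1A, rose at 24 h by 1.25 ± 0.31 (adjusted p = 0.00231, 1.33 without replicate 4) from a mean of 10.4. Another PGR5 component (comp121459_c0) changed by -0.32 at 24 h without replicate 4 (edgeR adjusted p = 0.583). HCF173, a translation factor for a photosystem II core protein, fell by 0.65 on the log2 scale at 6 h (edgeR adjusted p = 0.0184). Leaving out single libraries ended the 6 h calls of LPA1 (0 h replicate 1, 6 h replicate 1) and HCF173 (0 h replicate 1, 6 h replicate 3) and the 72 h calls of ALB3 (0 h replicates 1 and 2, 72 h replicate 4) and PGRL1A (72 h replicate 2). In the photoprotection list, 4 of 8 loci were measured: OHP2, an antenna-like helix protein, rose at 24 h (1.1 ± 0.33, adjusted p = 0.00902, 1.21 without replicate 4). ZEP, which makes violaxanthin, fell by 0.62 on the log2 scale at 72 h (adjusted p = 0.00153), while LIL3.1 and VDE1 were not called against 0 h. The OHP2 call was lost without 0 h replicate 1.

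GLK2, a transcription factor that in Arabidopsis activates antenna and photosystem genes, had 155, 126 and 147 before shoot removal, 245, 223, 242 and 246 after 6 h, 277, 265, 295 and 320.2 after 24 h and 198, 149.6, 148 and 191 after 72 h. It rose at 6 h (0.72 ± 0.11, adjusted p = 6.29e-05) and 24 h (0.99 ± 0.11, adjusted p = 1.29e-07, 0.95 without replicate 4), and at 72 h the difference from 0 h was 0.21 ± 0.12 (adjusted p = 0.264). Replicate 4 of 24 h, the lowest library for most members, was the highest of its time point for GLK2. GNC, the other measured regulator, changed by 0.67 ± 0.25 (adjusted p = 0.0754) at 72 h. The ferredoxin system of non-green plastids was also measured: the ferredoxin FD3 had a component that fell by 0.70 on the log2 scale at 6 h (edgeR adjusted p = 0.00707) and by 0.58 at 24 h (adjusted p = 0.00588, -0.57 without replicate 4), and a component with higher counts that fell by 0.35 at 72 h (adjusted p = 0.00994). RFNR1, the matching reductase, fell by 0.36 on that scale at 24 h (adjusted p = 0.000465, -0.35 without replicate 4). Of the cell type markers, STM fell by 0.41 on that scale at 6 h (adjusted p = 0.00844). At 24 h STM was not called with all libraries, but was called lower without replicate 4 (-0.28, edgeR adjusted p = 0.0421). The stomatal genes FAMA at 24 h and TMM at 72 h rose by 1.26 ± 0.37 (1.33 without replicate 4) and 0.80 ± 0.23. A MYB36 component rose at 24 h by 1.15 ± 0.31 (1.12 without replicate 4). The FD3 calls were each lost without 0 h replicate 3, the last also without 72 h replicate 2, and that of TMM without 0 h replicate 3 or 72 h replicates 2 or 4.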

How the data were processed

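Crown bud poly A+ RNA was converted to directional libraries and sequenced on a single lane. The deposited values are expected counts, which the authors estimated with RSEM on a transcriptome assembled with Trinity, after trimming with Sickle, and gave per contig and per component; RSEM divides reads among near-identical contigs. Counting took 1 strand, and whether that setting suits the kit was not tested. The deposited posterior probabilities hold the authors' own comparisons and were not used.

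Components held the sum of their contigs, and member components that of their member contigs. Counts were rounded, scaled by median-of-ratios size factors and tested in 23240 components with a mean normalized count above 5 at a time point, using edgeR 4.0.16 (R 4.3.3, quasi-likelihood test, 15 libraries and 4 groups in 1 fit, 6 comparisons). Every adjusted p is Benjamini-Hochberg adjusted over all components of a comparison, with a threshold of 0.05, and a value after ± beside a log2 fold change is its standard error. The fit was also run on simulated counts, drawn separately for each component with 1 common coefficient of variation (10.1%). Shifts shared by many components of a library were not simulated. Alternatives used limma 3.58.1 (log2 of the normalized count plus 1), DESeq2 1.42.0, other factors and filters, a replicate block and leaving out each library. P-values set a difference between time points against the spread between these libraries of pooled buds, and not between single plants.

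The text names, in each role, the component with the most counts of each protein family, the 3 largest rises and falls against 0 h, and components called against their role. Loci, gene lists and markers were chosen with earlier results of these data known.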

Additional observations from a re-analysis of the deposited data

Results flagged for a closer look

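In groups of 4 libraries, 102 sets of values were examined for a library far from the other 3, and 4 stood out; chance alone flags about 1 set in 20. The minor LHCA1 component (comp124975_c0) had 25.5 normalized counts in 72 h replicate 1, where the others had 16.5 to 17.5. PSAD-2 had 99.99 in 6 h replicate 4, below 139 to 145 in the others. PETC had 147 in 72 h replicate 1, above 118 to 123. PETE2 had 295 in 72 h replicate 3, below 423 to 438.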

How the results depend on the processing

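Of the named values, 4837 kept their direction and side of the threshold under an alternative, 125 crossed it upwards, 134 crossed it downwards and 4 reversed. The reversals belong to the minor LHCA1 component, which with 1 row per Arabidopsis locus is joined to the main one, with log2 fold changes of 1.19 (24 h against 0 h), 1.51 (72 h against 0 h), 0.32 (72 h against 24 h) and 0.97 (72 h against 6 h). The number of components called between 6 h and 0 h was 23 with no filter, 21 with only the 2 groups compared and 17 with the replicate block, PETE2, PETC and an ATPC1 component among those added. It was 21 between 24 h and 6 h with no filter. The cause was not tested. Leaving out 1 library gave 5 to 18 calls between 6 h and 0 h, 28 to 33 between 24 h and 0 h, 28 to 33 between 72 h and 0 h, 8 to 23 between 24 h and 6 h, 15 to 21 between 72 h and 24 h and 17 to 30 between 72 h and 6 h. The correlation of same-numbered deviations ran from -0.0934 to 0.453, with 12 of 21 over 0.1, and 12 of 15 libraries correlated best with their own number. All 4 pairs of 6 h with 24 h (0.105 to 0.379) were over 0.1, where the replicate block added PSBP-1 (-0.41) to the calls, but not all pairs of any other comparison. In those the numbers were not taken to pair the samples, although most libraries correlated best with their own number. Calls made without the block do not allow for what same-numbered libraries may share. The block moved the 72 h change of ATPD to 0.50 (adjusted p = 0.0521). Low counts limit the LHCB1.3 components and the minor LHCB4.2 component, which had the widest standard errors of the set.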
